A study of Homo sapiens with 2 samples.

Results

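The expression of 9 transcription regulators of epithelial differentiation (TP63, KLF4, OVOL1, GRHL1, GRHL3, ZNF750, GATA3, PRDM1 and HOPX) was examined in oral squamous cell carcinoma (OSCC) cells. They were the gene probes whose gene name on the array equalled one of these symbols, which gave 13 probes among 58201 and 9 gene names among 43317. Ca9-22 is an established OSCC line. Its cells received a lentivirus with the full-length cDNA of DLEU1, a long noncoding RNA, or the empty control vector, and both cultures were kept under 6 mg/ml blasticidin (the amount in the labels) for 2 weeks before RNA was taken. Both cultures thus shared the cell line, infection and drug selection, and each was measured on 1 one-colour array. There was no replicate culture, so that no test or p-value could be computed, and the vector cannot be told apart from any other difference between the 2 cultures.

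Stratified epithelium is renewed by basal cells that stop dividing, leave the basement membrane and build a cornified or mucosal surface layer. TP63 is the factor that sets up and maintains the basal layer, and the others act above or after it: ZNF750, KLF4, GRHL3, PRDM1 and HOPX in the late steps of differentiation, OVOL1 in the exit from the cell cycle, GRHL1 at the genes of desmosomes, and GATA3 in the barrier and its lipids. Many squamous carcinomas keep parts of this programme, and several of these genes are altered or silenced in them.

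The sequences below are what the array read at the members whose probes carry the largest differences or disagree with each other. Each is the first 30 of the 60 bases of a probe, taken from the deposited array files. ZNF750 and GRHL3 had the largest differences, and GRHL1 and HOPX each had a pair of probes that did not give the same answer.
ZNF750 A_33_P3423420: cctcactttccattccccaaaatgatgtgt
GRHL3 A_23_P52067: atcgactggaacaaagtgaccgctgtgtaa
GRHL1 A_33_P3230269: ctaatgaagtatgggaactaaattgctggt
GRHL1 A_33_P3423791: tggatatcacagttttcaaacccttcattg
HOPX A_33_P3350673: catgatagtctgccgtgcttggctttcgat
HOPX A_23_P254507: ggaacacatttccttctgaacttacttccc

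ZNF750, GRHL3, GATA3, OVOL1, GRHL1 and PRDM1 were at least 2-fold higher with the DLEU1 vector, at 18.7-fold, 12.7-fold, 4.81-fold, 4.35-fold, 4.0-fold and 2.76-fold. The GRHL1 call rested on the brighter of its probes. TP63 was 1.95-fold higher, just under the threshold, HOPX depended on the probe, and KLF4 was slightly lower. Of the 9 members, 6 were thus past 2-fold upwards and 0 downwards, where 9.18% of the 20246 genes measured on both arrays were past it upwards and 9.78% downwards. The median log2 difference was 2.00 over the members and -0.07 over all genes. Here a level is the log2 of the processed signal minus the 75th percentile of its array, and a difference is the DLEU1 vector minus the control vector. A gene took the value of its brightest probe that the scanner software marked well above background on both arrays. Levels of different probes were not set against each other, because probes differ in how strongly they bind.

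**Figure D1:**
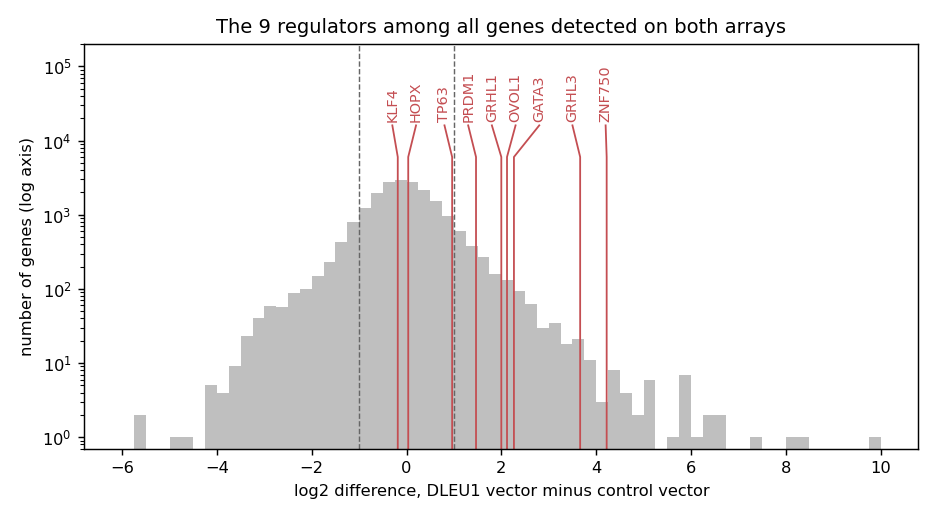
Number of genes (log axis) by log2 difference between the DLEU1 and the control vector, for the 20246 genes measured on both arrays, with the 9 regulators marked by red lines and the 2-fold limits by dashed lines. ZNF750 and GRHL3 lay in the far right tail, 4 more regulators lay to the right of the upper limit, TP63 stood just inside it, and KLF4 and HOPX stood near the centre.

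The spread that these arrays could show was technical. The log2 difference of a single spot had an SD of 0.0800 over 282 probes spotted more than once, and of 0.308 over the 5 such probes with a mean signal under 100. Where a gene had several probes, their differences had an SD of 0.47 around the mean of the gene (4674 genes). Every member probe had 1 spot. Lower signals were denser in some places of the DLEU1 vector array. For each probe, the 100 nearest spots well above background with the control vector were read. The share of these at least 2-fold lower had a median of 13% over the array. Its 5th percentile was 7%, its 95th percentile 19% and its maximum 43%. Around the member probes it ran from 7% to 19%, and the highest of these, at the 95th percentile, was that of ZNF750.

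As a check of the labels, DLEU1 itself was read first. The probe A_23_P151337 stood at a log2 level of 3.17 in the control and at 5.91 in the DLEU1 vector culture, 6.67-fold higher. A pair of dimmer probes, listed for another DLEU1 transcript, were 1.81-fold (A_19_P00321577) and 1.46-fold (A_21_P0007910) higher. The line was read against cell type markers as well. All 10 epithelial markers (among them KRT5, KRT14, CDH1 and EPCAM) were well above background on both arrays, at levels from 3.58 to 6.89 with the control vector. They were not at the same level with both vectors: 7 were at least 2-fold higher with the DLEU1 vector and 0 lower, with a median of 1.48, and their summed signal (in units of the array's 75th percentile) was 539.6 and 1765. The keratins KRT17 (3.09) and KRT6A (2.91) had the largest differences, and KRT18 (-0.93) and EPCAM (-0.78) the lowest. The part of this shift over epithelial markers in the members' differences was not tested. Of 7 fibroblast markers, COL1A1 and PDGFRB were measured on both arrays and LUM with the DLEU1 vector only, and COL1A2, COL3A1, DCN and THY1 on neither. COL1A1 was at 0.47 in the control and at 4.47 in the DLEU1 vector culture. It made the summed fibroblast signal 1.56 and 22.4, and without it the sums were 0.172 and 0.330. Of 4 endothelial markers, VWF was -2.33 and 1.37 and CDH5 was -2.14 and -2.73, PECAM1 and KDR were measured on neither, and the summed signal was 0.460 and 2.76. The 5 leukocyte markers on the array summed to 1.49 and 1.20, with CD3E measured on neither array, and the 4 melanocyte markers to 3.45 and 3.53, with MLANA and TYR measured on neither. The part of COL1A1-bearing or VWF-bearing cells in the members' differences was not tested. In RNA from a whole culture, more cells that express a gene and more of its RNA per cell cannot be told apart.

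TP63 encodes p63, the master factor of the basal layer. Its probe A_24_P273756, on chromosome 3 from 189586433 to 189586492 (hg19), is listed for 4 RefSeq transcripts and does not tell them apart. With the control vector the level was 0.87, and the DLEU1 vector gave 1.83, a difference of 0.96. The DLEU1 vector culture was the higher of the pair, and the gene stayed under 2-fold. A total of 9.71% of all measured genes had a difference at least as high. TP63 passed 2-fold with 3 of the 13 alternative settings (the 75th percentile over detected probes, quantile normalization and loess), and its lowest value was 0.56, with spike-in scaling.

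ZNF750 is a zinc finger factor that is induced by p63 and turns on late differentiation genes while repressing progenitor genes. Its probe A_33_P3423420 lies on chromosome 17 from 80787362 to 80787421 (hg19, minus strand). The control vector culture had a level of 0.02 and the DLEU1 vector culture one of 4.24, where the raw processed signal was 245 and 4459. Among the probes measured on both arrays its difference of 4.22 was the largest of the 9 members (1 HOPX probe gave only a bound), and 38 of the 20246 genes (0.188%) reached that difference or more. It stayed between 3.82 and 4.37 under the alternative settings.

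KLF4, a Krüppel-like factor that works with ZNF750 in late differentiation and is needed for the skin barrier, did not share this pattern. Its probe A_23_P32233 (chromosome 9, 110248049 to 110248108, minus strand, hg19) had a level of 0.60 in the control and of 0.41 in the DLEU1 vector culture. The difference of -0.19 was 1.14-fold. It was below 0 under all 13 alternatives, from -0.58 to -0.07, and never reached 2-fold. KLF4 was the lowest of the 9 members.

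GRHL1 and GRHL3 belong to the grainyhead-like family, which binds the same DNA motif and acts at barrier and cell junction genes. For GRHL3, the probe A_23_P52067 (chromosome 1, 24681534 to 24681593, hg19), listed for 3 RefSeq transcripts, went from a level of -2.85 to one of 0.82. The difference was 3.66. The raw signal with the control vector was 33.7, in the range where background correction weighs most, and the normexp correction gave a difference of 2.44, still past 2-fold. The other GRHL3 probe, A_33_P3266132, is listed for a single transcript and was not well above background on either array (raw signals of 3.21 and 6.19), so it gave no value.

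For GRHL1, the probe A_33_P3230269 (chromosome 2, 10142232 to 10142291, hg19) had levels of 1.07 and 3.07, a difference of 2.00. The dimmer probe A_33_P3423791 (10132177 to 10132236) had levels of -3.33 and -2.55, a difference of 0.78. Both were higher with the DLEU1 vector, but the differences lay 1.22 apart. The SD of 0.47 is that of single probes around the mean of their gene, and a gap between a pair of probes spreads more widely. With the mean of both probes GRHL1 stood at 1.39. The size of its difference therefore rested on the probe used, and so did its call, because the dimmer probe alone was 1.72-fold higher. The direction was the same for both probes, and the mean stayed past 2-fold.

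OVOL1 is a zinc finger repressor that stops proliferation as keratinocytes leave the basal layer and that opposes mesenchymal genes. The probe A_23_P202810 (chromosome 11, 65564519 to 65564578, hg19) had a level of 1.18 in the control and of 3.30 in the DLEU1 vector culture. The difference was 2.12, and ran from 1.72 to 2.27 over the alternatives. GATA3, a zinc finger factor of the suprabasal epidermis and hair follicle, gave a close value. Its probe A_33_P3360341 (chromosome 10, 8117072 to 8117131, hg19) had levels of -0.07 and 2.19, a difference of 2.27 with a range of 1.87 to 2.38. GATA3, OVOL1 and GRHL1 were neighbours in the order of differences, and the gaps between them were smaller than the SD between probes of a gene.

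PRDM1, also known as Blimp1, is a repressor that acts in the last steps before cornification. The brighter probe A_33_P3342081 (chromosome 6, 106557662 to 106557721, hg19) had levels of -0.75 and 0.72, and a difference of 1.47. The dimmer probe A_23_P350451 (106555123 to 106555182) had levels of -2.29 and -1.02, and a difference of 1.27. Here the pair of probes gave nearly the same value, 0.20 apart. The difference of the brighter probe ran from 1.07 to 1.66 over the alternatives.

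HOPX is a small homeodomain protein that does not bind DNA itself and modulates SRF in differentiating cells. Its probes did not agree. A_33_P3350673 (chromosome 4, 57516850 to 57516909, minus strand, hg19), which the file lists for 1 transcript, had levels of -2.01 and -1.98. Its difference of 0.04 was smaller than the spot SD and fell below 0 under 4 of 12 alternatives. A_23_P254507 (57514443 to 57514502) is listed for 4 transcripts, among them that of the first probe. Its raw signal was 3.37 with the control vector, not well above background, and 103 with the DLEU1 vector. That made it at least 7.41-fold higher, against the lowest signal measured well above background on the control array. HOPX was counted among the members under 2-fold because the rule takes a probe measured on both arrays, and with the second probe it would be past the threshold.

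The calls were read under 13 alternative settings. Several of them could not change the value of most members, because they kept the same probe and scaling. ZNF750, GRHL3, GATA3, OVOL1, GRHL1 and PRDM1 stayed at least 2-fold higher under each alternative that gave them a value. No alternative used the dimmer GRHL1 probe alone. GRHL3 and HOPX gave none when the signal had to reach 100 on both arrays. The setting that moved most members down was scaling by the spike-in probes, which shifts the median of all genes by -0.40.

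**Figure D2:**
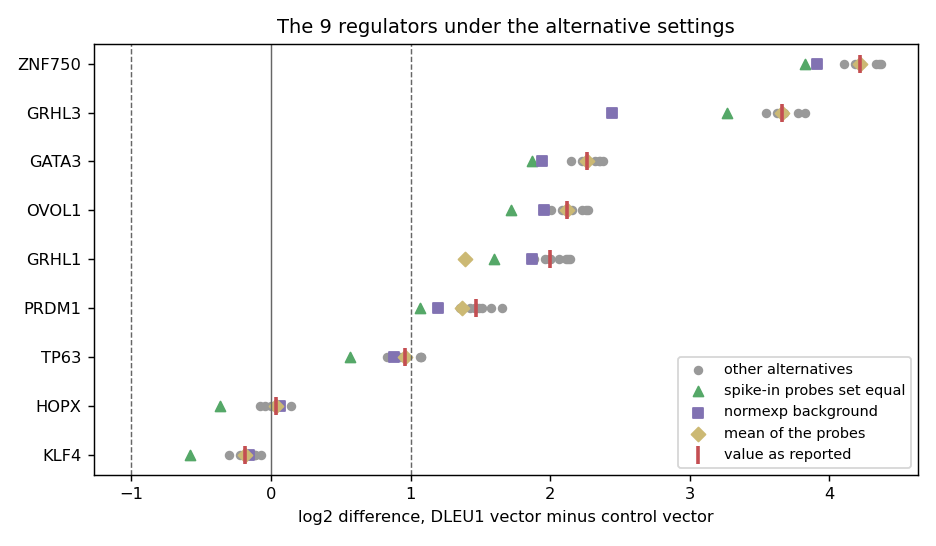
Log2 difference of each of the 9 regulators as reported (red bar) and under the alternative settings, with dashed lines at 2-fold and a solid line at 0. Spike-in scaling (triangles) gave the lowest value of 7 regulators, normexp (squares) that of GRHL3 and the mean of the probes (diamonds) that of GRHL1, and no point of the 6 called regulators lies left of the upper 2-fold line.

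The nearest family members of these factors were looked at next. Of 30 relatives (in the p63, KLF, OVOL, grainyhead, GATA and PRDM families), 22 were measured on both arrays, 5 were at least 2-fold higher and 1 lower, and the median difference was 0.09, which turned to -0.31 with spike-in scaling. KLF9 (1.58), KLF10 (1.25) and KLF3 (1.18) had the largest differences upwards. TFCP2L1 (-1.29), KLF6 (-0.89) and PRDM4 (-0.68) had the lowest. GRHL2, the third grainyhead-like gene and a keeper of the epithelial state, went from 1.51 to 2.04, a difference of 0.53 that was smaller than those of GRHL1 and GRHL3. OVOL2 went from 2.16 to 1.63 (-0.54), against 2.12 for OVOL1. GATA6 differed by -0.32 and KLF5 by 0.57. TP73, a relative of TP63, differed by 1.09 from a dim level of -2.16. PRDM15 was measured with the control vector only. GATA1, GATA4 and GATA5 were well above background on neither array.

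Other regulators of epidermal fate were read as a wider group. Of 31, 29 were measured on both arrays, 9 were at least 2-fold higher and 1 lower, with a median of 0.73. DLX5, a distal-less homeobox gene, went from -3.47 to 0.11 (3.58). IKZF2 differed by 2.19 and MAF, a factor of keratinocyte differentiation, by 1.85. The epithelial ETS factors EHF and ELF3 differed by 1.47 and 1.09. ETS1, an ETS factor of the basal and invasive state, differed by -1.12, POU3F1 by -0.63 and SOX15 by -0.30. POU2F3 was measured with the DLEU1 vector only.

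The genes of proteins that work with the members had a lower median difference than the members. Of 23 partners and modifiers, 22 were measured on both arrays, 0 were at least 2-fold higher and 2 lower, with a median of -0.08 whose sign changed with the scaling. The ZNF750 partners KDM1A and RCOR1, parts of a demethylase complex, differed by 0.71 and 0.56, and CTBP1 and CTBP2 by -0.01 and -0.79. LMO4 differed by -0.10. PPP1R13L, which binds p63, was highest of the group at 0.89. FBXW7, a ubiquitin ligase subunit, was lowest at -1.80, followed by the arginine methyltransferase PRMT5 (-1.06) and WDR5 (-0.96).

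Genes known to be controlled by the members were then counted. The members and these lists were chosen with earlier results of these data known, so that their direction is no independent support. Of 30 late differentiation genes, 18 were measured on both arrays. All 18 were higher with the DLEU1 vector, 14 of them at least 2-fold, with a median of 2.76. SPRR3, a cornified envelope precursor, had the largest difference (9.88), followed by the mucosal keratin KRT4 (8.36) and IVL, the envelope protein involucrin (5.84). KRT10, the suprabasal epidermal keratin, was among the lowest at 0.53, with the lipoxygenase genes ALOX12B (0.60) and ALOXE3 (0.36). LOR, TGM5, KRT1, DSC1, CDSN, RPTN and CRNN were measured with the DLEU1 vector only, and 5 genes on neither array. Keratin and SPRR genes have close copies, and hybridisation between copies was not tested.

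The p63 targets of the basal layer, integrins, laminins and basal keratins among them, were measured in full. Of 22, 6 were at least 2-fold higher and 0 lower, with a median of 0.40 that came down to 0.01 with spike-in scaling. KRT14 went from 4.56 to 7.40 (2.85) and KRT5 from 6.89 to 8.99 (2.10), and JAG1, a NOTCH ligand, differed by 1.54. LAMA3 (-0.28), LAMB3 (-0.31) and ITGA3 (-0.53), which anchor basal cells to the matrix, had the lowest differences.

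Among 12 genes that these factors are known to repress, 9 were measured on both arrays, and 2 were at least 2-fold higher and 0 lower, with a median of -0.48. CDKN1A, the cell cycle inhibitor p21, which p63 represses, went from -1.52 to 1.01 (2.53). ID2, an inhibitor of differentiation and an OVOL1 target, was also higher (2.14). MYC, repressed by OVOL1 and PRDM1, differed by -0.48. The mesenchymal genes VIM, ZEB1 and SNAI1 differed by -0.97, -0.92 and -0.87, each under 2-fold, and CDH2 by 0.41. CIITA was measured with the DLEU1 vector only, and ZEB2 and FN1 on neither array.

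Genes listed as tied to the progenitor state or to the copying of DNA, a mixed list, moved in both directions. All 20 were measured, 5 were at least 2-fold higher and 8 lower, with a median of -0.60. The 8 lower genes included FOXM1 (-2.76), UHRF1 (-2.27), PCNA (-1.95) and DNMT1 (-1.74), which serve cell division and the copying of DNA and its marks. SATB1 (2.61), ID3 (2.35) and ID2 (2.14) were the highest. The part of the proliferative state of the cultures in the members' differences was not tested. Of 13 housekeeping genes, 0 were at least 2-fold higher and 2 lower. Their median was -0.44 and their values ran from -1.38 (HPRT1) to 0.43 (YWHAZ).

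**Figure D3:**
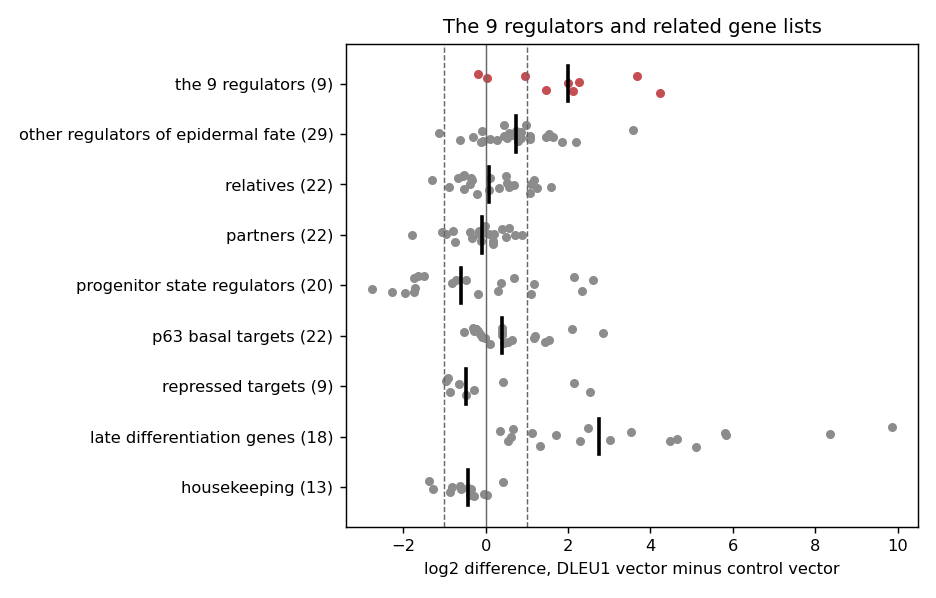
Log2 difference between the DLEU1 and the control vector for the genes of 9 lists measured on both arrays (cell type markers are not drawn) (points, with their number in brackets) and the median of the list (black bar). Dashed lines mark 2-fold. The 9 regulators (red) had a median of 2.00, next to 2.76 for late differentiation genes, and the other 7 lists drawn had medians between -0.60 and 0.73.

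The DNA just before the transcription starts was searched for short motifs. Those of the KLF, GATA, grainyhead and OVOL families and of PRDM1 were used. The AP-1 motif and TATAA, which are not motifs of the members, were added, and no p63 motif was searched. RefSeq windows (GRCh38.p14, a different build from that of the probes) were at hand for 7 of the 9 members, 15 windows in all, and the 250 bases before each start were read on both strands. The windows of ZNF750 and OVOL1 were not used here. The KLF core CACCC was in 10 of the 15 windows (66.7%), against 54.7% of 35116 windows of the same length over all genes. The GATA core GATAA was in 3 (20.0% against 20.4%), the PRDM1 core GAAAGT in 3 (20.0% against 11.4%), the AP-1 motif TGANTCA in 2 (13.3% against 6.6%), and TATAA in 2 (13.3% against 18.9%). The grainyhead motif AACCNGTT and the OVOL motif CCGTTA were in 0 of the 15, against 1.5% and 2.5%. GATA3 alone has 6 of the windows, and nothing is read from these shares.

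Among the called members, GATA3, GRHL3 and PRDM1 had windows with matches, and the GRHL1 window had none. The stretch around the matches of the window with the most is given for each. These are the called members in which letters that match the motifs can be seen before a start site. GATA3 has several starts, and its other windows had fewer matches. Capitals mark the matches to the motifs named above, 5 in GATA3, 5 in GRHL3 and 4 in PRDM1. A match is a description of the letters and not evidence of binding.
GATA3, chr10:8060207-8060456 (+): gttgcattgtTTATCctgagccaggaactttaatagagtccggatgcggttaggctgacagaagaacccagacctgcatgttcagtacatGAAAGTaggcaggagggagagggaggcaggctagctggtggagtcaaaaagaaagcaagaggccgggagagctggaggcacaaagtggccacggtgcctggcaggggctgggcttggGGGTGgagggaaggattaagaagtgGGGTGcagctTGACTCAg
GRHL3, chr1:24319147-24319293 (+): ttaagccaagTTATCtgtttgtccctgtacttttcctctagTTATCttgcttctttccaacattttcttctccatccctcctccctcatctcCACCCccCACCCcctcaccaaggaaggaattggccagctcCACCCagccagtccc
PRDM1, chr6:106098691-106098915 (+): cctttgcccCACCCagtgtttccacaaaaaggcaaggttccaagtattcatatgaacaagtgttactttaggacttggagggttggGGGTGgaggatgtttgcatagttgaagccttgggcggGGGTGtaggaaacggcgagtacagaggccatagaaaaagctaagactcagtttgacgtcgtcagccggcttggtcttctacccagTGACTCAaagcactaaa

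In GRHL3 the capitals are a pair of GATA cores followed by 3 KLF cores. In PRDM1 they are 3 KLF cores and, nearest the start, an AP-1 motif. In GATA3 a GATA core, a PRDM1 core, a pair of KLF cores and an AP-1 motif stand in this order.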

How the data were processed

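Total RNA of each culture (100 ng) was labelled with Cy3 and hybridised to an Agilent one-colour array, both on 1 slide and in 1 scan. The deposited intensity values are the processed signal of Agilent Feature Extraction (version 10.7 in the submitters' processing notes, 10.7.3.1 per the file headers), which subtracts the local background and detrends the signal. Flags for outlier spots and for signals well above background are deposited beside the intensity. The authors analysed the arrays in GeneSpring. Their deposited series values are the same signal, rounded (at most 0.497% apart), with no normalization between arrays. Probe positions are on hg19.

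From these, control spots and outlier spots (84 with the control vector, 103 with the DLEU1 vector) were left out, spots of a probe were averaged as log2, and the 75th percentile over non-control probes (7.92 and 7.88) was subtracted with pandas 2.3.3 and numpy 2.4.6 (Python 3.11.15). Signals well above background numbered 27731 of 58201 probes (47.6%) with the control and 27969 (48.1%) with the DLEU1 vector, and 0 were saturated. The number of arrays limits the precision. A probe measured on 1 array only was given as a bound against the higher of the lowest measured signal and its own. A call was 2-fold or more. The genes named were all members and their probes, the 3 highest and 3 lowest genes of each list, some relatives, partners and targets, and DLEU1. Genes named outside this rule (among them EHF, ELF3, DNMT1 and the GATA genes) were chosen after their values were seen, and some genes are not reported here. The members and lists were chosen with earlier results of these data known. Quantile and loess scaling and the normexp correction used limma 3.58.1 in R 4.3.3. The computation was tested on simulated data. Motifs were searched in RefSeq promoter windows.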

Additional observations from a re-analysis of the deposited data

How the results depend on the processing

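The count of members at least 2-fold higher was 6. Over the alternatives it was lowest, at 5, with a minimum signal of 100, which leaves 7 members. It was highest, at 7, with the 75th percentile over detected probes, quantile normalization or loess. With these settings 10.9%, 10.1% and 10.6% of all genes were at least 2-fold higher. With the limit itself moved, 5 members were at least 3-fold and 7 at least 1.5-fold higher. The share of all genes past these other limits was not computed, so nothing is read from the counts at them. The count of members lower was 0 under each of them. The median difference of the members (2.00) became 2.14 with loess, 2.13 after quantile normalization, 2.11 by the 75th percentile of detected probes alone, 1.89 by the median of each array, 1.60 with spike-in scaling, 1.87 with normexp and 1.39 where the probes of a gene were averaged. Of 115 values of single members under alternatives, 66 shifted by no more than the spot SD, 49 by more, and 0 of the called values changed sign. Many of the 66 could not shift. The filters kept the same probe and scaling, and averaging left members with a single measured probe unchanged. The series values are the same signal, rounded, and leaving out the scaling shifted all genes by only -0.04. The tally is therefore no measure of how stable the values are. Over all genes, the shift of the median was -0.11 by the median, 0.11 by the percentile of detected probes, -0.40 with spike-in scaling and 0.11 with no filter on dim probes. The genes at least 2-fold higher were 48.4% of those called, against 58.4% by the percentile of detected probes, 57.6% with loess, 54.98% after quantile normalization, 39.0% with median scaling and 19.0% with spike-in scaling, where 1014 were higher and 4327 lower (1858 and 1981 as reported). Normexp gave 1121 genes higher (5.54% of 20246), and a signal of at least 100 gave 1026 (7.27% of 14112). The looser filter on significant signal gave 2909 (11.2% of 26013), and no filter gave 4232 (9.77% of 43317). The share as reported was 9.18%, so these counts differ partly by the number of genes admitted. No paired analysis was possible because each group had 1 array. Leaving out a replicate was not run for the same reason. Spot and probe spread hold no variation between cultures.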

Other observations

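RNAs named for the neighbourhood of the members were read as well. GATA3-AS1, transcribed from the opposite strand next to the GATA3 start, had a pair of probes, and both were well above background with the DLEU1 vector only. A_21_P0006622 (chromosome 10, 8094370 to 8094429, hg19) went from a measured level of -5.22 to -1.81 and was at least 4.86-fold higher. A_33_P3227269 (8092413 to 8092472) went from -6.04 to -2.21 and was at least 3.68-fold higher. GATA3 itself was 4.81-fold higher. The OVOL1-AS1 probe A_21_P0014655 (chromosome 11, 65556522 to 65556581) went from -2.72 to -1.92, a difference of 0.80, against 2.12 for OVOL1. The lnc-GATA3-3 probe differed by -0.19 from a dim level, and the other 10 of the 14 probes of RNAs named for GATA3, KLF4, PRDM1, ZNF750 or OVOL1 were well above background on neither array.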
